A study of Mus musculus with 6 samples.

Results

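The genes described here make, store, take up and break down the monoamine transmitters dopamine, noradrenaline and serotonin. The 10 members are Th, Ddc, Dbh, Tph2, Slc18a2, Slc6a2, Slc6a3, Slc6a4, Maoa and Maob, chosen by name, and each was the single symbol of exactly 1 probe set, so all 10 were found among 19938 genes with a probe set of their own. RNA came from W4 mouse embryonic stem cells after 16 days of neural differentiation in a medium with B27, N2, bFGF, laminin and insulin. The VPA cultures were kept throughout in 300 uM valproate (VPA), an antiepileptic drug, histone deacetylase inhibitor and developmental neurotoxicant, at a concentration described as sub-toxic in the labels. The other cultures were kept in the solvent, phosphate-buffered saline (PBS). Each group had 3 arrays of cultures that the design text calls biological replicates, all from this single cell line, and both groups were given the same medium.

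Tyrosine hydroxylase (Th) carries out the rate-limiting step of dopamine synthesis, and tryptophan hydroxylase (Tph2) starts serotonin synthesis in brain. Aromatic amino acid decarboxylase (Ddc) then gives dopamine or serotonin, and dopamine beta-hydroxylase (Dbh) converts dopamine to noradrenaline. The vesicular transporter Slc18a2 loads all of these into synaptic vesicles, the plasma membrane transporters Slc6a2, Slc6a3 and Slc6a4 take up noradrenaline, dopamine and serotonin, and the monoamine oxidases Maoa and Maob on the outer mitochondrial membrane break monoamines down.

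With VPA, 6 of the 10 genes rose (13.6% of all genes did), 1 fell (15.7% of all genes did) and 3 did not pass an adjusted p of 0.05 in limma's fit across all 19938 genes. In either direction 7 of the 10 were called, against 29.2% of all genes. Only Th, Ddc and Slc18a2, 3 of the 6, rose without PBS replicate 2 or when arrays were centred on the olfactory receptor genes described below. Of the 6, Dbh, Tph2 and Slc6a4 each lost the call when some single arrays were left out. Th, Ddc and Slc18a2 rose by 0.80, 0.91 and 0.65 on the log2 scale, whereas Dbh, Tph2 and Slc6a4 rose by 0.23 to 0.30. Maob fell by 0.71, and Slc6a2, Slc6a3 and Maoa differed by 0.07 to 0.19. The 3 VPA arrays lay wholly above or wholly below the 3 PBS arrays for the same 7 genes, as they did for 44% of all genes. Values are normalized log2 signals, in which a difference of 1 is a doubling. In RNA from whole cultures, fewer cells of a type and less RNA per cell cannot be told apart.

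**Figure D1:**
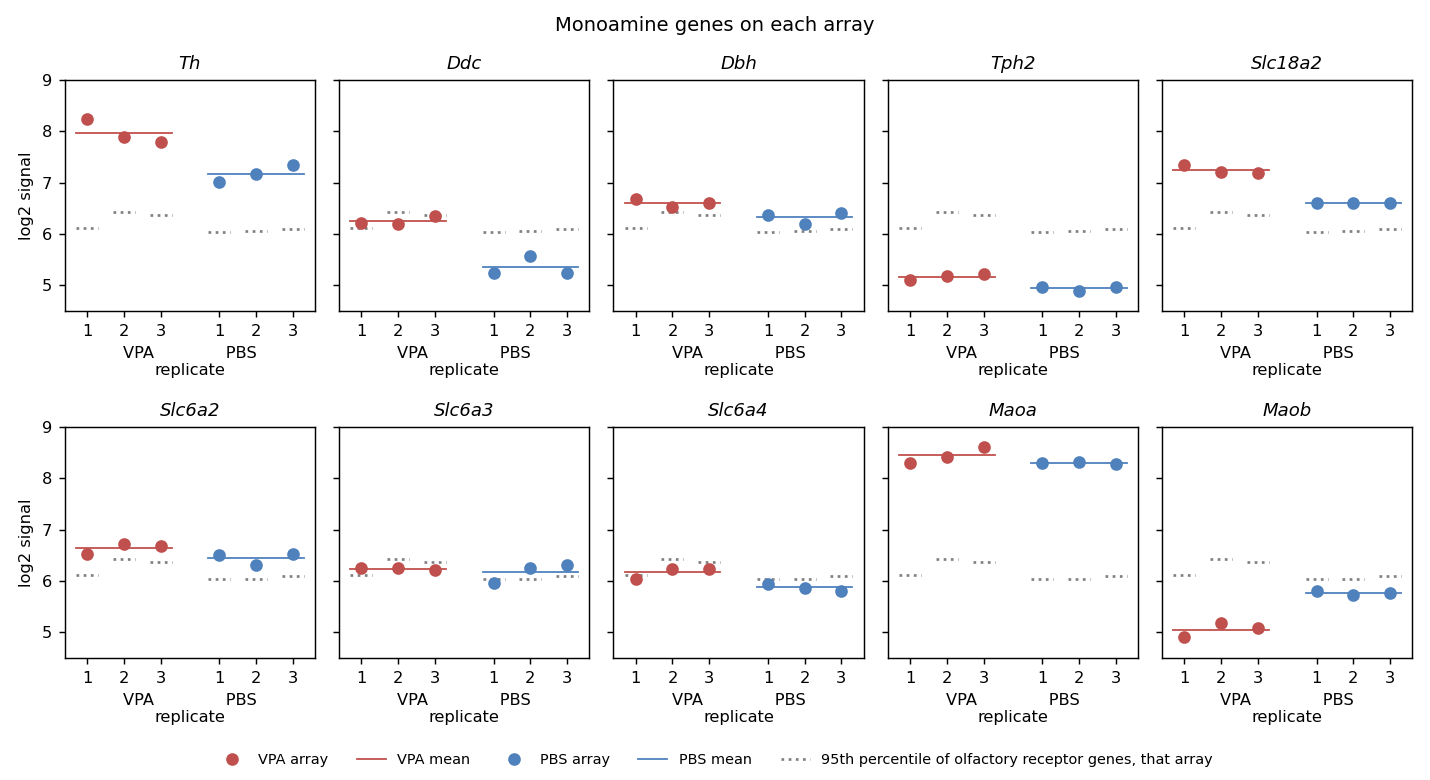
Deposited log2 signal (vertical axis) of each of the 10 genes on each array (horizontal axis), with VPA arrays on the left and PBS arrays on the right of a panel. Points are arrays, horizontal lines are group means (n = 3), and dotted lines give the 95th percentile over olfactory receptor genes on that array. Th and Slc18a2 lie above that line on all 6 arrays and higher with VPA, while Maob lies below it on all 6 arrays and lower with VPA.

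Since several members were dim, their signals were set beside those of 1015 olfactory receptor genes, most of which are silent outside the nose. The 95th percentile of these genes, taken on each array, was 6.12, 6.43 and 6.37 with VPA and 6.04, 6.05 and 6.09 with PBS. Th, Slc18a2, Dbh, Slc6a2 and Maoa exceeded it on every array, and Tph2, Slc6a4 and Maob exceeded it on no array. Ddc exceeded it on 1 of 3 VPA arrays and 0 of 3 PBS arrays, and Slc6a3 on 1 of 3 VPA arrays and 2 of 3 PBS arrays. The olfactory receptor genes were themselves higher with VPA, by a median of 0.18, with 229 of them called higher and 2 lower. Their array medians were 4.50, 4.76 and 4.69 with VPA and 4.40, 4.42 and 4.48 with PBS, so the difference lay mainly in VPA replicates 2 and 3. The central 95% of their changes ran from -0.06 to 0.49. The changes of Dbh, Tph2, Slc6a2, Slc6a3, Slc6a4 and Maoa lay inside this range, and those of Th, Ddc, Slc18a2 and Maob outside it. The other genes below 6.16, the 95th percentile over the 6-array means of olfactory receptor genes, had a median change of 0.02 (n = 4820) once 163 vomeronasal and 50 taste and trace amine receptor genes were set apart. Those receptor genes, also rarely expressed in brain, had medians of 0.09 and 0.09, with 20 and 7 called higher and 1 and 3 lower. Genes at or above 6.16 had a median change of -0.03 (n = 13944), with 15.2% called higher and 20.9% lower. The olfactory receptor range thus comes mostly from dimmer genes than Th, Slc18a2, Dbh, Slc6a2 and Maoa, and does not measure a shift at their level. The part of the olfactory receptor shift in the calls of dim members was not tested beyond these values and the centring given with Dbh, Tph2 and Slc6a4.

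**Figure D2:**
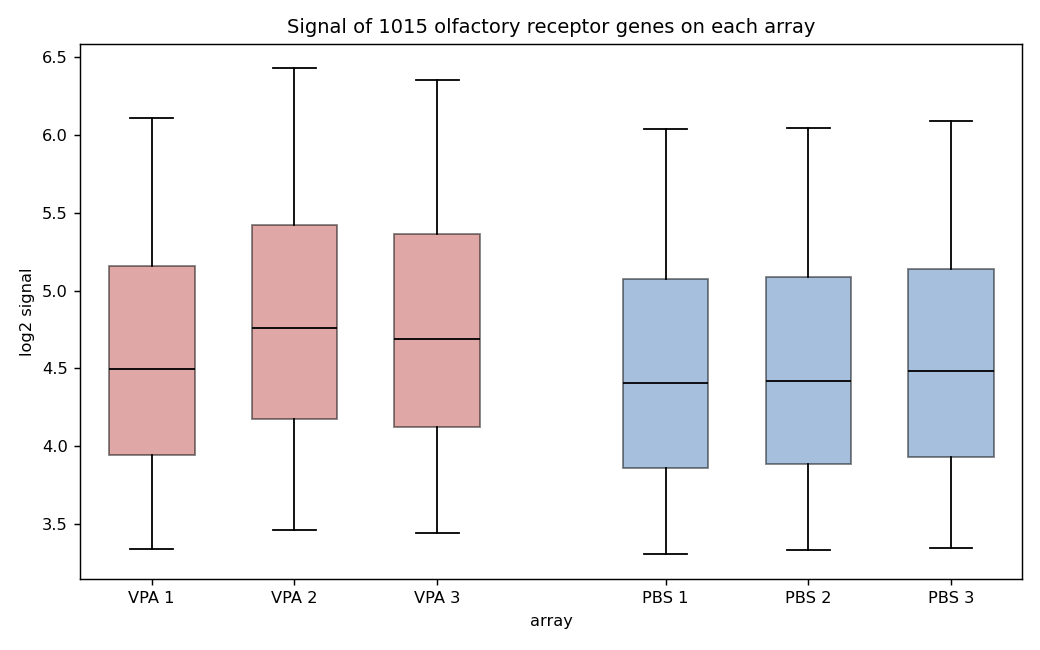
Log2 signal (vertical axis) of 1015 olfactory receptor genes on each array (horizontal axis), VPA arrays in red and PBS arrays in blue. Boxes span the quartiles with the median as a line, and whiskers reach the 5th and 95th percentiles. The medians of VPA replicates 2 and 3, at 4.76 and 4.69, lie above that of VPA replicate 1 at 4.50 and those of the PBS arrays at 4.40 to 4.48.

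Among the synthesis enzymes, Th stood above 99.6% of the olfactory receptor genes with VPA and above 99.5% with PBS. Its signal was 8.24, 7.89 and 7.79 on the VPA arrays, against 7.00, 7.16 and 7.34 on the PBS arrays. Every VPA array was above every PBS array, by at least 0.45, and VPA replicate 1 was the highest. Th averaged 7.97 ± 0.24 with VPA and 7.17 ± 0.17 with PBS (SD, n = 3 each), a change of 0.80 (SE 0.12, adjusted p = 0.00137) or 1.74-fold. Without VPA replicate 1 the change was 0.67 (adjusted p = 0.000825).

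Ddc, the enzyme shared by the dopamine and serotonin routes, had signals of 6.21, 6.20 and 6.35 on the VPA arrays, against 5.23, 5.58 and 5.23 on the PBS arrays. The groups were separated by 0.62, with PBS replicate 2 nearest to the VPA arrays. The change was 0.91 (SE 0.10, adjusted p = 0.000196). All 3 PBS arrays lay under the olfactory receptor 95th percentile of their own array, as did VPA replicates 2 and 3, so the true size of the rise is not defined. Relative to the olfactory receptor genes' means in the same group, Ddc stood above 94.6% of them with VPA and above 81.1% with PBS.

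The vesicular transporter gene Slc18a2 had signals of 7.35, 7.20 and 7.18 with VPA, against 6.59, 6.60 and 6.60 with PBS. The PBS arrays were nearly equal, and the lowest VPA array was 0.59 above the highest of them. Its mean was 7.24 ± 0.09 with VPA and 6.60 ± 0.0028 with PBS (SD, n = 3 each), a change of 0.65 (SE 0.06, adjusted p = 9.73e-05) or 1.57-fold. As for Th, VPA replicate 1 was the highest, by 0.155 over the mean of the other VPA arrays, and without it the change was 0.60 (adjusted p = 5.33e-05).

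The promoter windows of these 3 genes are shown because they are the members that rose beyond the range of the olfactory receptor genes. RefSeq's windows on build GRCm38.p6, from 250 bases before to 50 bases after an annotated start, covered 8 of the 10 members in 9 windows, with no window listed for Slc6a2 and Maob. Each is given 5′ to 3′ on the gene's own strand, and capitals mark matches, on either strand, to the cAMP response element TGACGTCA or to AAAGGTCA, the element bound by NR4A nuclear receptors. The window of Th is chr7:142899946-142900245 on the minus strand, that of Slc18a2 is chr19:59260628-59260927 on the plus strand, and that of the first of 2 starts of Ddc is chr11:11898095-11898394 on the minus strand.
Th: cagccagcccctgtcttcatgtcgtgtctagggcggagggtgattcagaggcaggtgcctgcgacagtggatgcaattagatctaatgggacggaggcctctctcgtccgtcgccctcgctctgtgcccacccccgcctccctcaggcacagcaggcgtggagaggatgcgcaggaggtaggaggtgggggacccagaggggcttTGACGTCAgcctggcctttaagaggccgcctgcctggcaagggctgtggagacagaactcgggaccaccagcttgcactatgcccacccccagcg
Slc18a2: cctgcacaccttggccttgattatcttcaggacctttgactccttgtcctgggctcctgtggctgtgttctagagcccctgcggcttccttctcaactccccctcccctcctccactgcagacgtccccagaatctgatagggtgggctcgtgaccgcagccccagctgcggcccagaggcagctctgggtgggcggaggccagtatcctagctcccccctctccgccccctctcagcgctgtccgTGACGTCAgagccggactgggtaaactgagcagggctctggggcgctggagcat
Ddc: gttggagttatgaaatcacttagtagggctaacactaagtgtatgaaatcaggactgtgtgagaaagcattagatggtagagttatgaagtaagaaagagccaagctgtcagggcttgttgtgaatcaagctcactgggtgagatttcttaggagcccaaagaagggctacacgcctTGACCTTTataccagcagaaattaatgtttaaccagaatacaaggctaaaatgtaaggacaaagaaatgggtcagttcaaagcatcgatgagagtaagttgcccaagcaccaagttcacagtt
The cAMP response element was found in the windows of Th, at positions -45 to -38 before the start, and of Slc18a2, at -4 to 4 across the start, and in no other member's window. It was present in 588 of all 32851 windows (1.79%). The AAAGGTCA match of Ddc, in the printed window only, lay on the opposite strand at -73 to -66 and overlapped a match to TATAAA. AAAGGTCA was present in 1.51% of all windows. Of the other motifs searched on both strands, GGGCGG was found in 5 member windows (Th, Slc18a2, Slc6a3, Slc6a4 and Maoa, 35.7% of all windows), TATAAA in those of Tph2 and Ddc (13.6%), CACGTG in that of Slc6a3 (7.15%), CCAAT in that of Dbh and the other start of Ddc (37.4%), and TAATTA in none (5.29%). The windows of Th and Slc18a2 had 64.3% and 64% GC, against a median of 52.7% over all windows. The printed window of Ddc had 41.3% and that of its other start 54.3%. These matches describe the letters of the windows, and binding was not measured here.

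Dbh, the gene that completes the noradrenaline route, had signals of 6.68, 6.53 and 6.60 with VPA, against 6.38, 6.19 and 6.41 with PBS. The groups were separated by 0.12, less than the range within the PBS arrays. Its change was 0.28 (SE 0.07, adjusted p = 0.0205), a call lost without VPA replicate 3 (adjusted p = 0.0507) or PBS replicate 2 (adjusted p = 0.0863).

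Tph2, whose enzyme defines serotonergic neurons, had signals of 5.11, 5.17 and 5.23 with VPA, against 4.96, 4.88 and 4.97 with PBS. The groups did not overlap, but every array lay under its olfactory receptor 95th percentile, and expression was not told apart from background. The change of 0.23 (SE 0.06, adjusted p = 0.0173) was lost without VPA replicate 3 (adjusted p = 0.0543), PBS replicate 1 (adjusted p = 0.0523) or PBS replicate 2 (adjusted p = 0.0857).

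Of the plasma membrane transporters, only Slc6a4, the serotonin transporter gene, passed the threshold, and differences between the transporters' changes were not tested. Its signals were 6.04, 6.24 and 6.23 with VPA, against 5.95, 5.87 and 5.80 with PBS. VPA replicate 1 was closest to the PBS arrays, 0.09 above the highest of them. The change was 0.30 (SE 0.07, adjusted p = 0.0150), lost without VPA replicate 2 (adjusted p = 0.0542), PBS replicate 2 (adjusted p = 0.0555) or PBS replicate 3 (adjusted p = 0.0675), and all arrays lay under their olfactory receptor 95th percentiles. With each array centred on its olfactory receptor median, a scaling chosen after seeing the data, Dbh, Tph2 and Slc6a4 differed by 0.06, 0.02 and 0.08 and did not pass (adjusted p = 0.643, 0.880 and 0.475). That scaling moved the median of all genes by -0.21, so relative to the other genes these differences were like those on the deposited values. Th, Ddc and Slc18a2 passed under it with changes of 0.59, 0.69 and 0.43.

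The noradrenaline transporter gene Slc6a2 had signals of 6.52, 6.71 and 6.68 with VPA, against 6.50, 6.30 and 6.53 with PBS. VPA replicate 1 lay within the PBS values. The difference of 0.19 (95% interval 0.0078 to 0.37) did not pass over all genes (adjusted p = 0.112), and did so without VPA replicate 1 (0.25, adjusted p = 0.0260).

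The dopamine transporter gene Slc6a3, which marks mature midbrain dopaminergic neurons, had signals of 6.26, 6.25 and 6.22 with VPA, against 5.95, 6.25 and 6.31 with PBS. The VPA values lay inside the range of the PBS values. The difference was 0.07 (95% interval -0.13 to 0.28, adjusted p = 0.602), and without PBS replicate 1 it was -0.04.

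The oxidase genes Maoa and Maob neighbour each other on the X chromosome in RefSeq's annotation, and their enzymes differ in substrate preference and in the cells that hold them, with Maob known from astrocytes and serotonergic neurons. Maob had signals of 4.91, 5.18 and 5.08 with VPA, against 5.80, 5.73 and 5.76 with PBS. Every VPA array was below every PBS array, by at least 0.55. The change was -0.71 (SE 0.08, adjusted p = 0.000176), whereas the lowest change of any olfactory receptor gene was -0.41. Maob stood above 66.1% of the olfactory receptor genes with VPA and above 89.7% with PBS. Both groups lay below the 95th percentile, so no fold is given.

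Maoa was well above background, with signals of 8.31, 8.42 and 8.61 with VPA, against 8.30, 8.32 and 8.27 with PBS. VPA replicate 1 lay among the PBS arrays, and VPA replicates 2 and 3 lay above them. The difference was 0.15 (95% interval -0.03 to 0.32, adjusted p = 0.205), and it passed without VPA replicate 1 (0.21, adjusted p = 0.0285). The difference between the changes of Maob and Maoa was not tested.

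**Figure D3:**
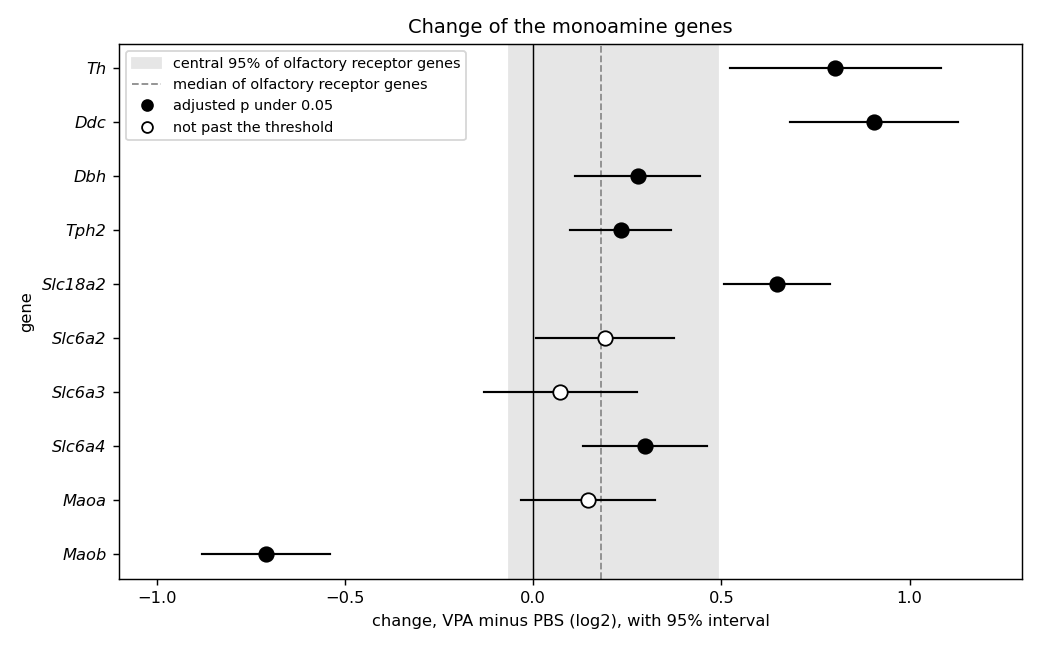
Change of each gene, VPA minus PBS on the log2 scale (horizontal axis), with its unadjusted 95% interval from limma, ordered by role from synthesis to breakdown. Filled points passed an adjusted p of 0.05 over all genes. The grey band is the central 95% of the changes of 1015 olfactory receptor genes, from -0.06 to 0.49, with their median of 0.18 dashed. Th, Ddc and Slc18a2 lie to the right of the band and Maob to its left.

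For called members whose mean was above 6.16 in at least 1 group, which Ddc and Slc6a4 were with VPA only, the genes most alike were those with the highest Pearson correlation over the 6 arrays, among genes that differed by at least 0.5 between groups. Such correlations rest mainly on the difference between the groups and are given as a description. Th was closest to Rarb, which encodes a retinoic acid receptor (r = 0.996), then Ttyh2 (r = 0.996) and Plcd1 (r = 0.994). Slc18a2 was closest to Palld, which encodes the actin-binding protein palladin (r = 0.9997), then Cmtm7 (r = 0.9994) and Dach1 (r = 0.9993). Ddc was closest to Nrsn1, Il1rap and Fap (r = 0.991 to 0.994), Dbh to Rec8, Gtse1 and Irgm1 (r = 0.975 to 0.996) and Slc6a4 to Klhl41, Inhba and Ska3 (r = 0.984 to 0.989).

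The counts in the lists that follow stand beside the 13.6% of all genes called higher and the 15.7% called lower. Of the enzymes that supply the cofactors of the hydroxylases, 2 of 8 rose and 0 fell, with a list median of 0.15 beside 0.0013 over all genes. These were Pcbd1, which recycles tetrahydrobiopterin, at 0.26 (SE 0.06, adjusted p = 0.00861), and Gchfr, the feedback regulator of its synthesis, at 0.20 (SE 0.06, adjusted p = 0.0402), a call lost without any 1 array other than VPA replicate 1 (adjusted p up to 0.141). Gch1, the first enzyme of tetrahydrobiopterin synthesis, averaged 4.71 with VPA and 4.60 with PBS, both below 6.16. Among other synthesis enzymes 2 of 4 rose. Moxd1, a relative of Dbh whose substrate is not settled, had signals of 9.30, 9.10 and 9.16 with VPA, against 6.82, 6.90 and 6.64 with PBS, a change of 2.40 (SE 0.08) where Dbh changed by 0.28. Pnmt, which turns noradrenaline into adrenaline, rose by 0.22 (adjusted p = 0.0266) with both means below 6.16, a call lost without any 1 array other than VPA replicate 1 (adjusted p up to 0.0939). Its change lay inside the central range of the olfactory receptor genes, -0.06 to 0.49.

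Of the other uptake genes 1 of 3 measured rose, Slc22a2 by 0.19 (adjusted p = 0.0459), with both means below 6.16, and this call too was lost without any 1 array other than VPA replicate 1 (adjusted p up to 0.163). The change of Slc22a2 also lay inside the central range of the olfactory receptor genes. Slc29a4, a low-affinity monoamine transporter, was bright, with signals of 10.30, 9.93 and 9.85 with VPA and 9.80, 9.81 and 9.79 with PBS, and did not pass (adjusted p = 0.144). Of 8 other breakdown genes measured, Aldh2, which oxidizes the aldehydes that the monoamine oxidases form, rose by 0.28 (SE 0.06, adjusted p = 0.00630) and Hnmt, which methylates histamine, fell by 0.54 (SE 0.07, adjusted p = 0.000675), with both its means below 6.16. Of 6 regulators of the synthesis and uptake proteins, 2 fell and 0 rose. Syngr3, a vesicle protein that binds the dopamine transporter, fell by 0.59 (SE 0.08) and Dnajc5, a vesicle chaperone, by 0.21 (SE 0.05), and the call of Dnajc5 was lost without any 1 PBS array (adjusted p = 0.0558 to 0.0727).

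Transcription factors of the neurons that use these genes moved in both directions. Of 10 dopaminergic factors 4 rose and 3 fell, with a median of 0.11. Nr4a2, which activates Th and Slc18a2 in midbrain neurons, had signals of 8.07, 8.18 and 8.28 with VPA, against 7.61, 7.69 and 7.76 with PBS, a change of 0.49 (SE 0.07, adjusted p = 0.000999). Foxa1, a floor plate factor, rose by 0.72 (SE 0.15), while the midbrain genes Otx2 and En2 changed by -1.24 (SE 0.11) and -1.18 (SE 0.06). Pitx3, a defining gene of midbrain dopaminergic neurons, averaged 7.28 with VPA and 7.24 with PBS (adjusted p = 0.750).

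Of 8 noradrenergic factors 3 rose and 3 fell, with a median of 0.08. Tlx3 rose by 0.74 (SE 0.17), with VPA replicate 1 at 8.73 above the other VPA arrays at 8.04 and 8.07, a call lost without PBS replicate 1 (adjusted p = 0.0553). Tfap2b, Gata3 and Gata2 changed by -1.39 (SE 0.07), -1.02 (SE 0.13) and -0.63 (SE 0.08). The defining factor genes Phox2a, an activator of Dbh, and Hand2 rose by 0.43 (SE 0.07) and 0.45 (SE 0.06). Of 6 serotonergic factors 2 rose and 2 fell, with a median of 0.06. Nkx2-2 had signals of 7.22, 6.52 and 6.23 with VPA, against 5.85, 6.00 and 5.72 with PBS, all PBS arrays being below 6.16. Its change was 0.80 (SE 0.21, adjusted p = 0.0203), or 0.52 without VPA replicate 1 (adjusted p = 0.0047), and the call was lost without PBS replicate 1 (adjusted p = 0.0696) or PBS replicate 3 (adjusted p = 0.0734). Lmx1b rose by 0.41 (SE 0.08), and Gata2 and Gata3, required for serotonergic fate, are the same genes as above.

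**Figure D4:**
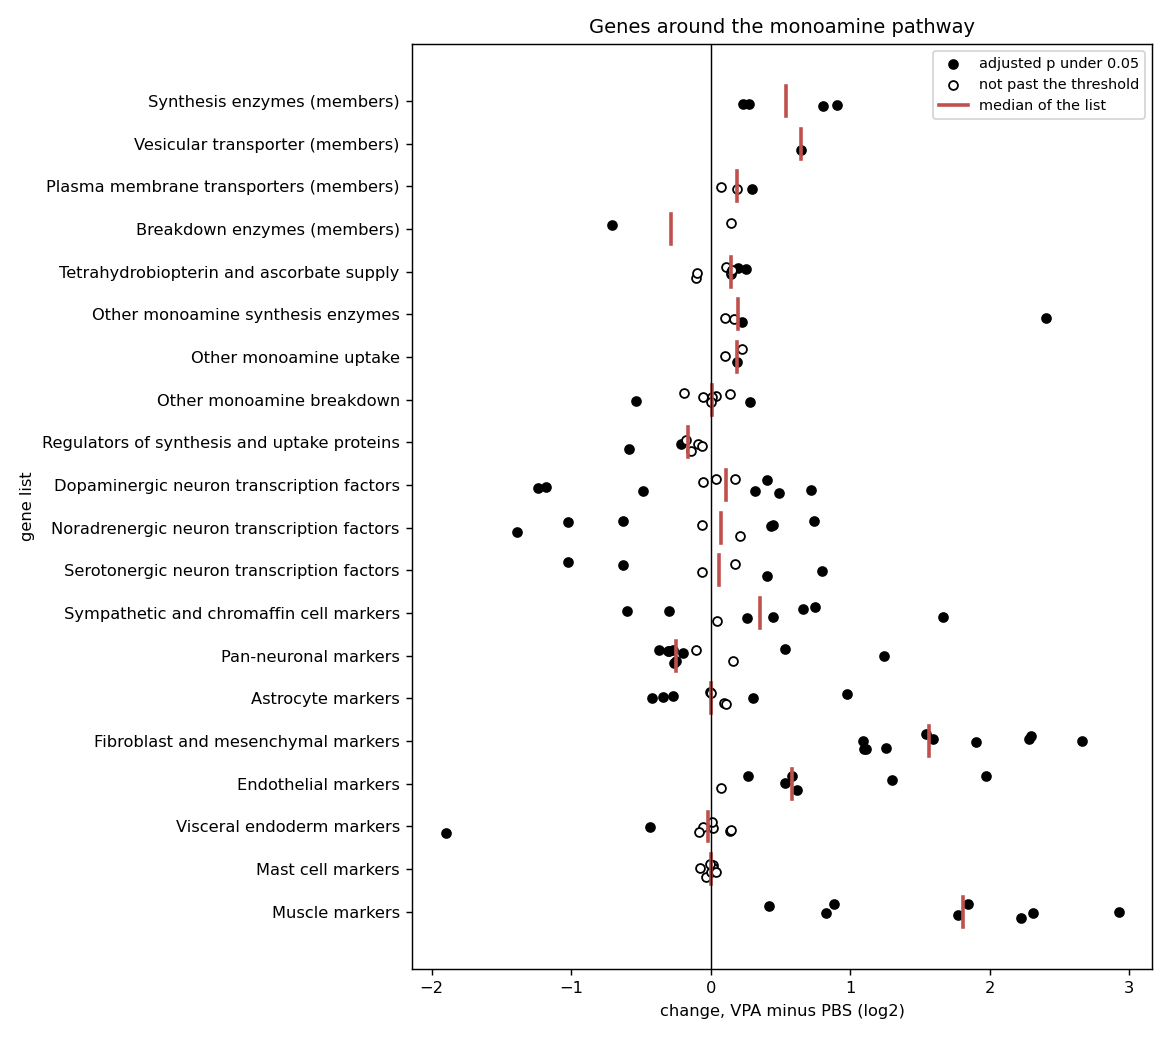
Change, VPA minus PBS on the log2 scale (horizontal axis), of every measured gene of the monoamine genes, the genes around them and the marker lists (rows). Filled points passed an adjusted p of 0.05 over all genes, and red bars are list medians. Synthesis enzymes all lie above 0, mast cell genes lie around 0 with none filled, and fibroblast and muscle genes lie above 0 and are all filled.

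Markers of the cells that could hold these transcripts moved as well. Pan-neuronal genes were bright in both groups, and 2 of 11 rose and 7 fell, with summed linear signals of 22544 to 22796 with VPA and 25059 to 26093 with PBS. Nefm, for a neurofilament subunit, rose by 1.24 (SE 0.06) and Nefl, for another, by 0.53 (SE 0.06), whereas Dcx and Elavl3 changed by -0.37 (SE 0.06) and -0.31 (SE 0.08), the call of Elavl3 being lost without any 1 array other than VPA replicate 1 (adjusted p up to 0.0653). In the list of sympathetic and chromaffin cells, peripheral cells that make noradrenaline and adrenaline, 5 of 8 rose and 2 fell, with summed signals of 8177 to 8351 with VPA and 8639 to 8988 with PBS. Stmn2, which is also in the pan-neuronal list, carried that order, and the sums of the 7 other genes were 3542 to 3968 with VPA and 3181 to 3234 with PBS. Npy rose by 1.67 (SE 0.08), Cartpt by 0.75 (SE 0.08) and Ret by 0.66 (SE 0.09), and Chgb changed by -0.60 (SE 0.07). Of 9 astrocyte genes 2 rose and 3 fell. Their summed signals were 4960 to 5420 with VPA, highest in VPA replicate 1, and overlapped the 4717 to 4995 with PBS. Among these genes Fgfr3 rose by 0.98 (SE 0.09) and Gja1 by 0.30 (SE 0.06), while Aldh1l1 and Slc1a2 changed by -0.42 (SE 0.07) and -0.34 (SE 0.06). Gfap changed by -0.27 (SE 0.08), a call lost without any 1 array other than VPA replicate 2 (adjusted p up to 0.153).

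Fibroblast genes rose in 10 of 10 cases, with summed signals of 10087 to 10984 with VPA and 2688 to 3190 with PBS, and were led by Postn at 2.66 (SE 0.13). Of 8 muscle genes 8 rose (2404 to 3961 with VPA, 707.7 to 749.8 with PBS), led by Actc1 at 2.93 (SE 0.18). Of 7 endothelial genes 6 rose (902 to 1055 with VPA, 492 to 539 with PBS), led by Cdh5 at 1.98 (SE 0.16). Of 8 visceral endoderm genes 0 rose and 2 fell, Ttr by 1.90 and Cubn by 0.43 (653 to 675 with VPA, 944 to 1254 with PBS). Ttr, the brightest of them at 7.26 to 7.43 with VPA and 8.82 to 9.56 with PBS, carried the order of these sums. Afp, Apob, Sox17 and Alb averaged below 6.16 in both groups and did not pass. The part of any of these cell types in the changes of Th, Ddc, Slc18a2 and Maob was not tested. Mast cells also hold Slc18a2, and 0 of their 7 genes passed limma's test (0 at an unadjusted p under 0.05). Of these genes 6, Cpa3, Fcer1a, Mcpt4, Tpsb2, Cma1 and Ms4a2, averaged below 6.16 in both groups.

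Over all 19938 genes 2702 were called higher and 3123 lower. The balance of calls moved with the scaling, to 3229 higher and 2489 lower after cyclic loess and to 884 higher and 7422 lower after centring on the olfactory receptor genes, both chosen after seeing the data. Array medians lay between 6.99 and 7.03. VPA replicate 1 differed from VPA replicates 2 and 3 by a median absolute difference of 0.12 and 0.13. The difference was 0.07 between those arrays and 0.06 to 0.07 among PBS arrays. Th, Slc18a2, Slc6a2 and Maoa are given with and without VPA replicate 1 above. Without it Maob changed by -0.64 (adjusted p = 7.98e-05) and Slc6a4 by 0.36 (adjusted p = 0.00159) in limma's fit. The VPA arrays then left had the higher olfactory receptor medians, 4.76 and 4.69 against 4.50 in VPA replicate 1. The part of that shift in the changes without VPA replicate 1, Slc6a4 and Slc6a2 included, was not tested.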

How the data were processed

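RNA of 3 VPA and 3 PBS cultures was labelled by the Affymetrix whole transcript sense target assay, per the labels' protocols. The authors deposited 1 normalized log2 signal per probe set and array, and base 2 was inferred from the range of 2.50 to 13.89. The genome build mm9 and Partek 6.5 appear, without a role, per the submitters' processing notes; how background was corrected and arrays were normalized is not given in the sources used here. Such normalization makes each change relative to other genes.

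Of 35556 probe sets, 21789 had 1 gene symbol in GEO's platform annotation, 1621 several and 12146 none. Symbols were updated by Entrez gene ID for 21698. The probe set with the highest mean stood for its gene. VPA was compared with PBS in limma 3.58.1 (R 4.3.3, lmFit and eBayes, no covariates), with Benjamini-Hochberg adjustment over 19938 genes and a threshold of 0.05. The fit was tested on simulated data with 200 changed genes, far fewer than were called here. It recovered 14%, 62%, 98% and 100% of changes of 0.25, 0.5, 1 and 2 on the log2 scale. Of its calls 4.2% were false. Small changes were thus mostly missed in that setting. There were no detection calls or scan dates, so the olfactory receptor genes' 95th percentile served as a gauge of background. With arrays, their number limits the precision.

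The members, lists, gauge and motifs were chosen with earlier results of these data known. All members are named, with up to 4 called genes of the largest change per other list (or the 2 of smallest p in a list without calls), defining markers, and the 3 most alike genes of each called member whose mean passed the gauge in at least 1 group. The labels do not say that replicate numbers pair the arrays. Same-numbered VPA and PBS arrays deviated from their group means with correlations of -0.02, -0.0085 and 0.02, so no shared deviation was seen. Such correlations cannot tell whether same-numbered cultures were grown or processed together.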

Additional observations from a re-analysis of the deposited data

How the results depend on the processing

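The rises of Th, Ddc and Slc18a2 and the fall of Maob kept their direction and their side of the threshold under every alternative run, which were 17 for Th and Slc18a2 and 15 for Ddc and Maob, whose means lay below both filters on dim genes. Their changes ran from 0.59 to 0.89, 0.69 to 1.02, 0.43 to 0.68 and -0.92 to -0.63, with highest adjusted p of 0.00898, 0.00200, 0.00781 and 0.00207. Leaving out 1 array at a time gave 1778 to 3949 genes higher and 2058 to 4224 lower (both lowest without PBS replicate 2 and highest without VPA replicate 1), and 3 to 8 members higher with the same extremes. Without PBS replicate 1 Slc6a3 differed by -0.0357 and without PBS replicate 3 by 0.142. With array weights 4342 genes were higher, and Slc6a2 (0.25, adjusted p = 0.0149) and Maoa (0.16, adjusted p = 0.0471) passed. Both filters on dim genes, at the olfactory receptor gauge or the 30th percentile, left out Ddc, Tph2, Slc6a4 and Maob. Of the members that remained, 3 were higher and 0 lower under either filter. Over all genes, 2286 of 13944 were higher and 3184 lower at the gauge, and 2285 and 3185 of 13956 at the percentile. Centring on the olfactory receptor medians, chosen after seeing the data, gave 884 genes higher and 7422 lower and 3 members higher; Slc6a2, Slc6a3 and Maoa differed by -0.0229, -0.142 and -0.0685 there, with the median of all genes at -0.21. With the replicate number as a block, 2592 genes were higher and 2818 lower, and the calls of the 10 members did not change. Quantile normalization, centring on array medians, the other variance models and cyclic loess changed no member's call, though array medians differed little before centring. The mean of probe sets, counted among the alternatives, could not change the members' values, since each had 1 probe set. Dim signals limit what can be said of Ddc, Tph2, Slc6a4 and Maob.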
